A study of Mus musculus with 36 samples.

Results

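The genes described here make up the pathway of antigen presentation on MHC class II, by which cells of the immune system show fragments of engulfed proteins to CD4+ T cells. They are 8 genes taken by symbol: the chain genes H2-Aa, H2-Ab1 and H2-Eb1, the invariant chain gene Cd74, the genes H2-DMa, H2-DMb1 and H2-DMb2 of the peptide loader H2-DM, and the transactivator gene Ciita. All 8 were found among the 24411 genes of the deposited tables, and each was above 0 in all 36 libraries. Their level is given in TPM (a transcript abundance per length, scaled to the same fixed total in each library). RNA was sequenced from cultured mouse HSPC, the stem and progenitor cells of blood formation, taken from bone marrow, from controls labelled WT or with the label Taf1 KO, a conditional knockout of the largest TFIID subunit. TFIID is the general factor that binds core promoters for RNA polymerase II. Day 0 is the start of culture, and by day 3 the cells had been expanded with SCF and IL-3. The cultures were then divided into a macrophage course, which received M-CSF throughout and GM-CSF until day 5, and a granulocyte course, which received G-CSF throughout and kept SCF and IL-3 until day 5. Each cytokine was used at 50 ng/ml. The 12 groups held 3 libraries each, and the day 0 and day 3 libraries were common to both courses. The labels do not give the Cre driver, the deleted part of Taf1 or whether replicates were separate mice, so a p-value here reflects the spread among libraries, which may be technical.

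A class II molecule is a dimer of an alpha and a beta chain that is assembled on the invariant chain, which blocks the peptide groove and steers the complex to endosomes. There proteases cut the invariant chain down to a short fragment, and H2-DM exchanges that fragment for a peptide. The genes share a promoter design of an X box and a Y box, bound by RFX and NF-Y, on which the CIITA protein acts as a coactivator without binding DNA itself. Among myeloid cells, class II is high on dendritic cells, is induced on macrophages by interferon gamma, and is low on neutrophils.

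Promoter letters are shown for 3 members because the shared X and Y boxes are what ties these genes to CIITA. The RefSeq promoter table (GRCm38.p6, 250 bases before to 50 after each annotated start) held 5 of the 8 members, H2-Aa, H2-Eb1, H2-DMa, H2-DMb1 and H2-DMb2. Capitals mark the letters CTNNNAAC of an X box and GATTGG of a Y box, each sequence being read 5′ to 3′ on the strand of its gene.
H2-Aa: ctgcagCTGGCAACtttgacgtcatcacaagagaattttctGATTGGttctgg
H2-Eb1: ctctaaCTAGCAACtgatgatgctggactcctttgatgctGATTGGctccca
H2-DMb2: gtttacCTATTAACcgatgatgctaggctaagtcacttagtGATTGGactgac
The H2-Aa stretch lies at chr17:34287861-34287913 on the minus strand, upstream of the gene. The H2-Eb1 stretch lies at chr17:34305767-34305818 on the plus strand, upstream of its gene. The H2-DMb2 stretch lies at chr17:34145117-34145169 on the plus strand, within an intron of a longer H2-DMb2 transcript of GENCODE M21. From the end of the X letters to the Y letters there were 27 bases in H2-Aa, 26 in H2-Eb1 and 27 in H2-DMb2, and the same spacing of 27 was found in H2-DMb1.

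The pair CTNNNAAC followed by GATTGG within 10 to 30 bases, searched on both strands, was found in 4 of the 5 members and in 0.335% of the 32851 promoter windows. This X pattern was widened after the windows had been seen. The narrower CCNNGNAAC stood in 15.1% of windows and in 2 of 5 members, H2-DMa and H2-DMb1, and the pair with GATTGG in 0.131% and in H2-DMb1 alone. GATTGG by itself was in 16.1% of windows and in all 5 members. Such a match describes letters and shows no binding.

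Some facts of the whole series bear on these values. TPM tables carry no read depth. All knockout libraries had less Taf1 than all controls at 5 of 6 stages. The exception was day 3, with 9.62, 10.9 and 11.4 TPM in controls and 8.66, 10.3 and 9.06 TPM in knockouts (log2 value -0.17 ± 0.08, limma adjusted p = 0.0711). Taf1 passed there under median-of-ratios scaling, without short structural RNA and histone genes, and without control replicate 1 or knockout replicate 2 (limma adjusted p = 0.00747 to 0.0293). The progenitor markers Kit and Cd34 were present at day 0 in both genotypes, Cd34 at 185 to 229 TPM in controls and 204 to 271 TPM in knockouts. Summed over 8 progenitor markers, the genotypes overlapped at days 0 and 3. From day 5 every knockout library had the higher sum in both courses. In the granulocyte course it was 139 to 172 against 70.3 to 73.0 TPM in controls at day 5. At day 7 it was 111 to 172 against 38.7 to 59.4 TPM. Of the 8, 5 and 7 passed there in either direction (32% and 44.1% of all genes). Summed neutrophil markers reached 119200 to 172148 TPM at day 7 of the granulocyte course and 28326 to 71141 TPM at day 7 of the macrophage course. The neutrophil sums were higher in every knockout library at days 0 and 3 and at day 5 of both courses. They were 23650 to 43223 against 10278 to 18536 TPM in controls at day 0, and 129228 to 142903 against 73731 to 88603 TPM at day 3. At day 5 they were 185275 to 243263 against 56334 to 157387 TPM in the macrophage course. The granulocyte course gave 184060 to 226163 against 61645 to 156555 TPM. At day 7 the genotypes overlapped in both courses. Mean sums there were 33671 TPM in knockouts and 58733 TPM in controls of the macrophage course, and 162367 and 148392 TPM in the granulocyte course. Of 11 neutrophil markers 3 were higher at day 0 (13.1% of all genes higher). At day 3, 1 was higher and 2 lower (26.5% and 26.7% of all genes), with a median log2 change of -0.05. The sums weigh abundant markers most, and 1 marker reached 67904 TPM in day 3 knockouts. The part of these sums in the class II differences was not tested. In bulk RNA, fewer cells of a type and less RNA per cell cannot be told apart.

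In controls, 7 of the 8 members had their highest mean at day 3. H2-Aa, the alpha chain of H2-A, stood at 81.7, 107 and 33.8 TPM at day 0 and at 232, 347 and 385 TPM at day 3. It then stood at 35.2, 63.6 and 67.0 TPM at day 5 and 26.6, 25.4 and 49.3 TPM at day 7 of the macrophage course. In the granulocyte course it held 110.1, 142 and 126 TPM at day 5 and 93.3, 106 and 158 TPM at day 7. No other group overlapped the control libraries of day 3. Ordered by mean over the 12 groups, H2-Aa was highest in day 3 controls and lowest in day 0 knockouts, and these were the only groups that stood apart from their neighbours in the order. H2-Eb1, the beta chain of H2-E, had the same groups at both ends. H2-Ab1, the beta chain of H2-A, also had control day 3 first and knockout day 0 last, but its day 0 knockouts overlapped the day 7 control macrophage cultures.

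**Figure D1:**
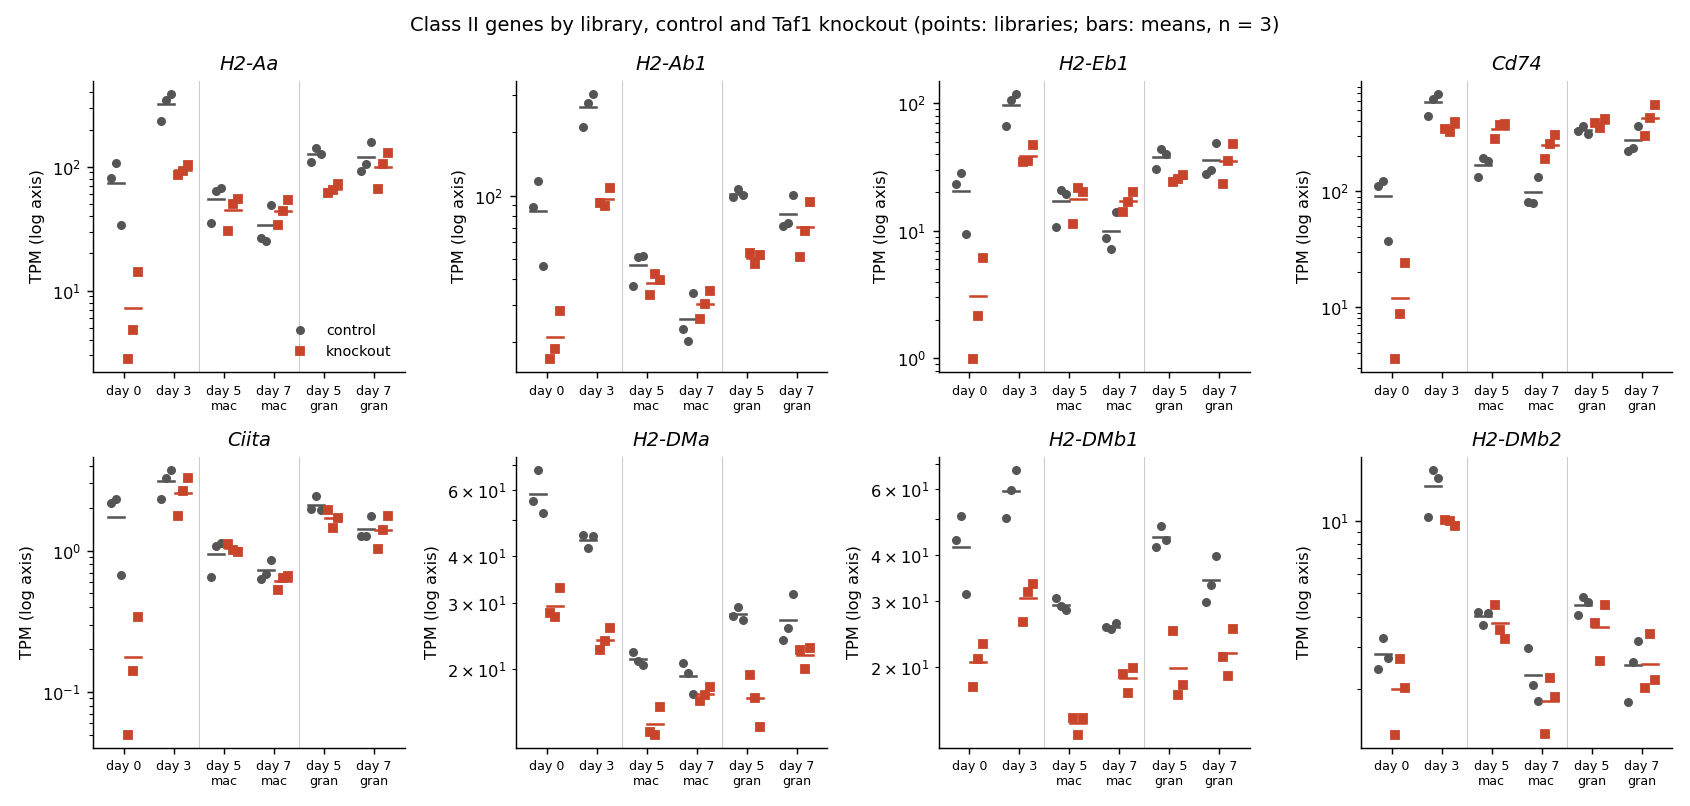
TPM on a log axis of the 8 members in each library at 6 stages (mac and gran are the macrophage and granulocyte courses), control as grey circles and Taf1 knockout as red squares, with the mean of 3 libraries as a bar. H2-Aa in knockouts lies at 2.82 to 14.1 TPM at day 0, below all controls, and Cd74 in knockouts lies at 189.6 to 307 TPM at day 7 of the macrophage course, above all controls.

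Of the other members, Cd74, Ciita, H2-DMb1 and H2-DMb2 also had their highest mean in day 3 controls. H2-DMa, the alpha chain of H2-DM, was the exception and was highest at day 0, with 56.2, 67.9 and 52.1 TPM in controls, and its order ended with the day 5 knockouts of the macrophage course at 13.6, 13.4 and 15.9 TPM. H2-DMb1, a beta chain of H2-DM, was highest in day 3 controls at 50.3, 59.6 and 67.5 TPM. H2-DMb2, the other beta chain gene, was also highest there, at 10.4, 16.3 and 15.2 TPM. The H2-DMb1 level exceeded that of H2-DMb2 in each of the 12 groups, but their reads overlap in part: 27.2% of the 50-base stretches of H2-DMb1 transcripts also occur in H2-DMb2, so the division between them is uncertain. Ciita was the lowest member, between 0.05 and 3.72 TPM over all libraries. Cd74 had the highest median, 304 TPM. H2-DMa also shares 360 of 3448 exon bases with Brd2 on the other strand, and Ciita 329 of 9535 with Dexi. No source used here says whether counting was stranded, so these members may hold reads of their partners.

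Taf1 knockout was set against control at 6 stages to ask when class II genes differ. Members and gene lists were chosen with earlier results of these data known, so shares of all genes set beside them are descriptions, not tests. At day 0, 7 of 8 members were lower in knockouts and 0 higher (limma, adjusted p below 0.05), where 23.3% of 11953 tested genes changed, 13.1% higher and 10.2% lower. At day 3, 6 members were lower, against 53.2% of genes changed, 26.5% higher and 26.7% lower. Fewer passed later. In the macrophage course 2 members were lower at day 5 (43% of genes changed, 37.9% lower and 5.11% higher), and at day 7 there was 1 higher and 1 lower (39.9%, with 27.4% higher, 12.5% lower). Granulocyte cultures had 3 members lower at day 5 (32% of genes, with 22.8% lower, 9.2% higher) and 2 lower at day 7 (44.1%, with 12% lower, 32.1% higher). The members' median log2 change was -1.51 at day 0 (0.06 over all genes), -0.89 at day 3 (-0.01), -0.17 and -0.63 at day 5 of the macrophage and granulocyte courses (-0.23 and -0.09), and 0.08 and -0.13 at day 7 (0.12 and 0.17). Groups of libraries lay apart, knockouts below, for 7 members at day 0 (16.5% of genes) and for 7 at day 3 (34.3%). Macrophage cultures had 2 such members at day 5 (46%) and 1 at day 7 (17.8%), granulocyte cultures 5 (31%) and 2 (15.7%). Knockouts lay above controls for 1 member at day 5 (7.94%) and 2 at day 7 (33.4%) of the macrophage course and for 0 elsewhere. The share of members called in either direction stood above that of all genes at day 0 and at day 3. With 1 library left out, the day 3 count fell as low as 4. At the later stages 2 or 3 members were called at each stage, too few to set above or below the shares.

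**Figure D2:**
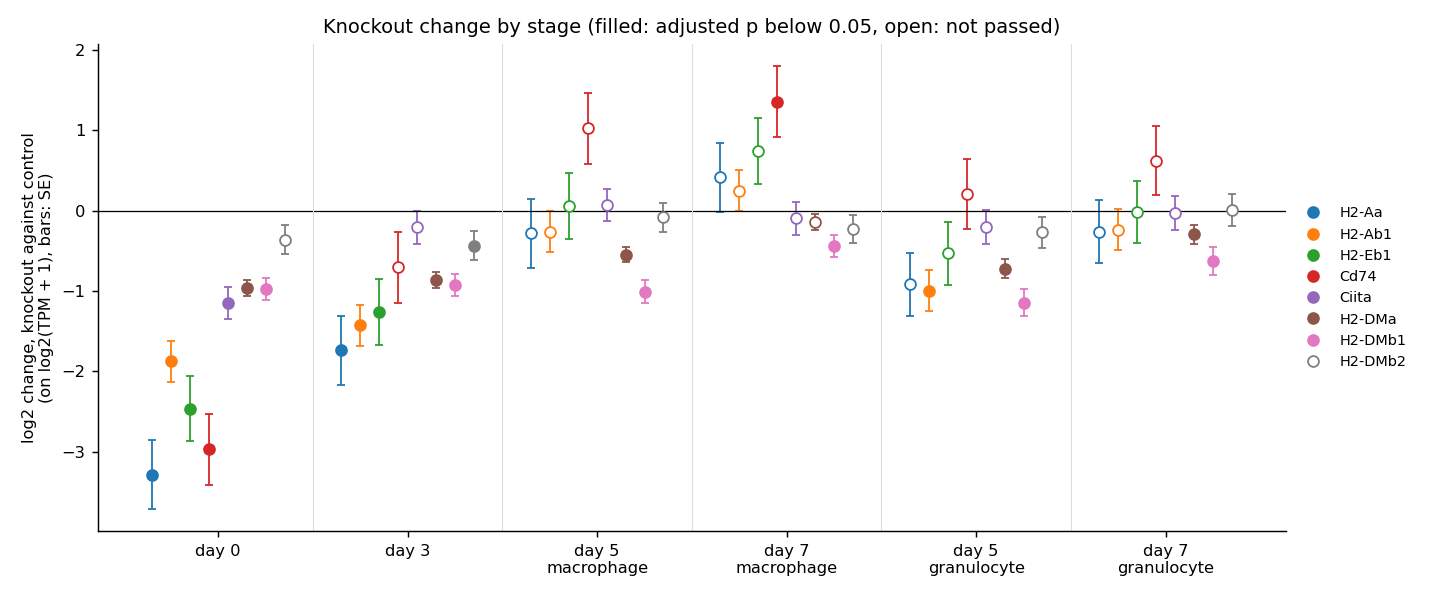
Log2 change of each member in Taf1 knockout against control at the 6 stages, on log2(TPM + 1), with the standard error as bars and filled points for adjusted p below 0.05. All 8 points lie below 0 at day 0, H2-Aa lowest at -3.29, and Cd74 is the filled point above 0 at day 7 of the macrophage course, at 1.36.

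The chain genes had large differences early. At day 0 H2-Aa was at 2.82, 4.8 and 14.1 TPM in knockouts, against the control values above. All knockout libraries were below all controls. The means differed 10.3-fold, or 7.87-fold without knockout replicate 1 and 19.5-fold without knockout replicate 3, and the log2 change was -3.29 ± 0.43 (SE; limma adjusted p = 1.3e-05). H2-Ab1 stood at 88.5, 118 and 46.4 TPM in controls and 16.7, 18.6 and 28.3 TPM in knockouts, without overlap (log2 change -1.88 ± 0.26, limma adjusted p = 2.34e-05). H2-Eb1 stood at 23.4, 28.6 and 9.44 TPM in controls and 0.99, 2.16 and 6.13 TPM in knockouts, again apart (log2 change -2.46 ± 0.41, limma adjusted p = 0.000175). For all 3 chains, replicate 3 was the lowest control and replicate 3 the highest knockout.

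At day 3 the chain genes were still lower. H2-Aa reached 86.3, 92.1 and 103 TPM in knockouts, 3.42-fold below the control mean, with no overlap (log2 change -1.74 ± 0.43, limma adjusted p = 0.00199). H2-Ab1 was at 212, 274 and 303 TPM in controls and 91.7, 88.8 and 108 TPM in knockouts (log2 change -1.43 ± 0.26, limma adjusted p = 0.000112). Its groups also lay apart. H2-Eb1 was at 65.8, 105 and 118 TPM in controls and 34.5, 35.2 and 47.0 TPM in knockouts (log2 change -1.26 ± 0.41, limma adjusted p = 0.0139). Without control replicate 3 the H2-Eb1 call was lost (limma adjusted p = 0.0579).

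From day 5 few chain gene differences passed. In the granulocyte course at day 5, H2-Ab1 held 98.7, 107 and 100.05 TPM in controls and 53.0, 47.0 and 51.8 TPM in knockouts, with no overlap (log2 change -1.0 ± 0.25, limma adjusted p = 0.00509). H2-Aa there lay apart too, at 61.4, 64.4 and 72.3 TPM in knockouts, but its log2 value of -0.92 ± 0.39 did not pass (limma adjusted p = 0.0811). When only these groups were fitted, it passed (limma adjusted p = 0.00352). In the macrophage course at day 5, H2-Aa held 30.1, 50.3 and 54.5 TPM and H2-Eb1 11.3, 21.8 and 20.1 TPM in knockouts, within or overlapping the control range. At day 7 of that course, H2-Eb1 was at 8.79, 7.2 and 14.08 TPM in controls and 14.1, 16.96 and 20.0 TPM in knockouts. All knockouts were above all controls, the closest by little, and the log2 value of 0.75 ± 0.41 did not pass (limma adjusted p = 0.156); it passed when only these groups were fitted (limma adjusted p = 0.0443). No chain gene passed at day 7 of either course, where the day 7 granulocyte libraries overlapped for all 3.

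Cd74, the invariant chain, moved from lower to higher. At day 0 it was at 111, 123 and 37.6 TPM in controls and 3.59, 8.68 and 24.1 TPM in knockouts. The groups did not overlap (log2 change -2.97 ± 0.44, limma adjusted p = 5.46e-05). The means differed 7.47-fold, or 5.53-fold without knockout replicate 1 and 14.8-fold without knockout replicate 3. At day 3 it stood at 446, 627 and 686 TPM in controls and 343, 325.5 and 396 TPM in knockouts. Knockouts were again below controls, but the log2 value of -0.71 ± 0.44 did not pass (limma adjusted p = 0.185) except when only these groups were fitted (limma adjusted p = 0.0048).

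At day 5 of the macrophage course Cd74 was at 134, 194 and 181 TPM in controls and 282, 372 and 382 TPM in knockouts. All knockout libraries were now above all controls, with a log2 value of 1.03 ± 0.44 (limma adjusted p = 0.0659). It passed under median-of-ratios scaling (1.28, limma adjusted p = 0.0225), which moved the median of all genes from -0.23 to -0.02, with a pseudocount of 5 TPM and with only these groups fitted. At day 7 it was at 81.4, 79.9 and 132 TPM in controls and 189.6, 254 and 307 TPM in knockouts, again apart, and the log2 change of 1.36 ± 0.44 passed (limma adjusted p = 0.0189). That call was lost without control replicate 1 or 2 or knockout replicate 2 or 3 (limma adjusted p = 0.0532 to 0.0786).

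In the granulocyte course Cd74 overlapped between genotypes. At day 5 it was at 328, 366 and 309 TPM in controls and 392, 353 and 418 TPM in knockouts. At day 7 it was at 224, 234 and 369 TPM in controls and 301, 428 and 552 TPM in knockouts. The log2 values of 0.21 ± 0.43 and 0.62 ± 0.43 did not pass (limma adjusted p = 0.75 and 0.255).

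Among the H2-DM genes, H2-DMb1 passed at 6 stages, H2-DMa at 5 and H2-DMb2 at 1. H2-DMb1 was the only member to pass at all 6 stages, each time lower. It stood at 43.9, 50.9 and 31.4 TPM in controls and 17.6, 20.97 and 23.1 TPM in knockouts at day 0, and at 50.3, 59.6 and 67.5 against 26.4, 31.8 and 33.5 TPM at day 3. No stage had overlapping libraries. H2-DMb1 thus differed by -0.98 ± 0.14 and -0.93 ± 0.14 on the log2 scale (limma adjusted p = 3.21e-05 and 1.43e-05).

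At day 5 H2-DMb1 was at 30.5, 29.0 and 28.5 TPM in controls and 14.6, 13.2 and 14.6 TPM in knockouts of the macrophage course. The granulocyte course gave 42.0, 47.9 and 43.8 against 24.9, 16.8 and 17.9 TPM. The groups lay apart in both, by -1.01 ± 0.14 in the macrophage and -1.15 ± 0.17 in the granulocyte course (log2; limma adjusted p = 1.31e-05 and 3.44e-05). At day 7 they were -0.44 ± 0.14 and -0.63 ± 0.17 (limma adjusted p = 0.0164 and 0.00604), though day 5 and day 7 were not tested against each other. The day 7 macrophage call was lost without knockout replicate 2 (limma adjusted p = 0.0763).

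H2-DMa changed like its partner at first. Its knockout libraries held 28.1, 27.5 and 32.8 TPM at day 0 and 22.5, 23.7 and 25.7 TPM at day 3, against 45.5, 42.1 and 45.2 TPM in day 3 controls, with no overlap at either day. H2-DMa thus differed by -0.97 ± 0.10 and -0.86 ± 0.10 on the log2 scale (limma adjusted p = 7.19e-07 and 6.9e-07). At day 5 they were -0.55 ± 0.10 for macrophage and -0.72 ± 0.12 for granulocyte cultures (limma adjusted p = 0.000215 and 9.86e-05), and libraries again lay apart in both.

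At day 7 of the macrophage course H2-DMa was at 20.7, 19.5 and 17.1 TPM in controls and 16.5, 17.01 and 17.9 TPM in knockouts. The libraries overlapped and the log2 value of -0.15 ± 0.10 did not pass (limma adjusted p = 0.252). It passed under median-of-ratios scaling at -0.30 (limma adjusted p = 0.0203) and without short structural RNA and histone genes at -0.27 (limma adjusted p = 0.0263). At day 7 of the granulocyte course the log2 change of -0.30 ± 0.12 was near the threshold (limma adjusted p = 0.0491). That call was lost without any library but control replicate 1 (limma adjusted p = 0.0564 to 0.229), and with the replicate number as a block (limma adjusted p = 0.0616).

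H2-DMb2 passed at 1 stage. It was at 2.41, 3.27 and 2.69 TPM in controls and 1.29, 2.67 and 2.01 TPM in knockouts at day 0, which overlapped, with a log2 value of -0.36 ± 0.18 (limma adjusted p = 0.15). At day 3 its knockouts held 10.1, 9.97 and 9.58 TPM, just below the lowest control, and the log2 change of -0.44 ± 0.18 passed (limma adjusted p = 0.0448). That call was lost without any library but control replicate 1 (limma adjusted p = 0.0723 to 0.186), with a pseudocount of 0.1 TPM, with no filter and in the fit over the granulocyte table (limma adjusted p = 0.0713). It passed at no later stage.

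Ciita, whose product switches on the other members, was low throughout. At day 0 it was at 2.17, 2.32 and 0.67 TPM in controls and 0.05, 0.14 and 0.34 TPM in knockouts. The groups lay apart, and replicate 3 was the lowest control and the highest knockout, as for the chains. The log2 change was -1.15 ± 0.20 (limma adjusted p = 0.000316), on a scale that understates changes of genes near 1 TPM. The means differed 9.74-fold, or 7.17-fold without knockout replicate 1 and 18.1-fold without knockout replicate 3. At day 3 it was at 2.32, 3.25 and 3.72 TPM in controls and 1.76, 2.66 and 3.28 TPM in knockouts, which overlapped (log2 value -0.21 ± 0.20, limma adjusted p = 0.402). Ciita did not pass at days 5 or 7 in either course. None of the 7 calls at day 0 was lost when any single library, or replicate 3 of both genotypes, was left out.

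Time changes were then compared. From day 0 to day 3, 7 members rose and H2-DMa fell in controls, where 73% of genes changed (33.3% higher, 39.6% lower), and the same split was found in knockouts, where 58.8% changed (22.8% higher, 35.9% lower). Cd74 rose by 2.83 ± 0.44 in controls and by 5.10 ± 0.44 in knockouts on the log2 scale (limma adjusted p = 8.08e-06 and 6.58e-09). H2-DMb2 rose by 1.97 ± 0.18 and 1.89 ± 0.18 (limma adjusted p = 4.3e-09 and 2.25e-08). H2-DMa fell by 0.39 ± 0.10 and 0.29 ± 0.10 (limma adjusted p = 0.00133 and 0.0175). The H2-DMa fall in knockouts was lost without knockout replicate 3 of day 0 or knockout replicate 1 of day 3 (limma adjusted p = 0.106 and 0.0769) and under median-of-ratios scaling (limma adjusted p = 0.157). The Ciita rise in controls, 0.64 ± 0.20 (limma adjusted p = 0.00764), was lost without control replicate 3 of day 0 (0.32, limma adjusted p = 0.0915).

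The day 0 to day 3 change itself differed between genotypes for 2 members, both rising more in knockouts, where 32.3% of genes differed, 15% higher and 17.3% lower. Cd74 differed by 2.26 ± 0.62 (limma adjusted p = 0.00912) and Ciita by 0.94 ± 0.29 (limma adjusted p = 0.016). H2-Aa at 1.55 ± 0.61 and H2-Eb1 at 1.21 ± 0.58 did not pass (limma adjusted p = 0.055 and 0.117). Without replicate 3 of both genotypes at day 0, an alternative chosen after the values were seen, 5 members passed, with H2-Aa at 2.59 and H2-Eb1 at 2.16 (limma adjusted p = 0.000984 and 0.00317). Leaving out control replicate 3 or knockout replicate 3 of day 0 alone was enough for H2-Aa (2.03 and 2.11, limma adjusted p = 0.013 and 0.00707) and for H2-Eb1 (1.66 and 1.71, limma adjusted p = 0.0305 and 0.0215). H2-Aa also passed under median-of-ratios scaling, with a pseudocount of 0.1 TPM, with the replicate number as a block, in the fit over the granulocyte table and without short structural RNA and histone genes (limma adjusted p = 0.0321 to 0.0457). The Ciita difference was lost without control replicate 2 of day 0, control replicate 1 of day 3 or knockout replicate 3 of day 3 (limma adjusted p = 0.0511 to 0.0537).

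From day 3 to day 7 the direction turned. In the macrophage course all 8 members fell in controls, where 63.4% of genes changed (34.5% higher, 28.9% lower), and 7 fell in knockouts, where 62% changed (36.3% higher, 25.7% lower). H2-Aa fell by 3.25 ± 0.43 in controls and by 1.10 ± 0.43 in knockouts (limma adjusted p = 1.49e-06 and 0.0318). Cd74 fell by 2.59 ± 0.44 in controls (limma adjusted p = 3.47e-05) and had a log2 value of -0.53 ± 0.44 in knockouts, which did not pass (limma adjusted p = 0.314) except with only these groups fitted (limma adjusted p = 0.0206). The knockout call of H2-Aa was lost without any library but replicate 3 of day 7 (limma adjusted p = 0.0512 to 0.106), and that of H2-Eb1 without replicate 3 of day 3 or replicate 1 of day 7 (limma adjusted p = 0.0726 and 0.0641).

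The fall from day 3 to day 7 in the macrophage course differed between genotypes for 5 members, each less lowered in knockouts, against 35.2% of genes that differed, 21.8% higher and 13.4% lower. The differences were 2.15 ± 0.61 for H2-Aa, 1.68 ± 0.37 for H2-Ab1 and 2.00 ± 0.58 for H2-Eb1 (limma adjusted p = 0.00951, 0.00153 and 0.0111). Cd74 differed by 2.06 ± 0.62 and H2-DMa by 0.71 ± 0.14 (limma adjusted p = 0.0143 and 0.000627). H2-DMb1 at 0.49 ± 0.20 did not pass (limma adjusted p = 0.0584), but passed without control replicate 1 of day 3, with a pseudocount of 5 TPM and with only these groups fitted (limma adjusted p = 0.0281 to 0.0409). In the same contrast 10 of 12 macrophage markers, 9 of 9 interferon gamma pathway genes and 7 of 9 class I genes also had a more positive change in knockouts, against 21.8% of genes. This contrast compares changes over time, not levels at day 7. At day 7 of this course 5, 7 and 2 genes of these lists differed in level between genotypes, in either direction (39.9% of all genes). The part of these lists in the class II differences was not tested.

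**Figure D3:**
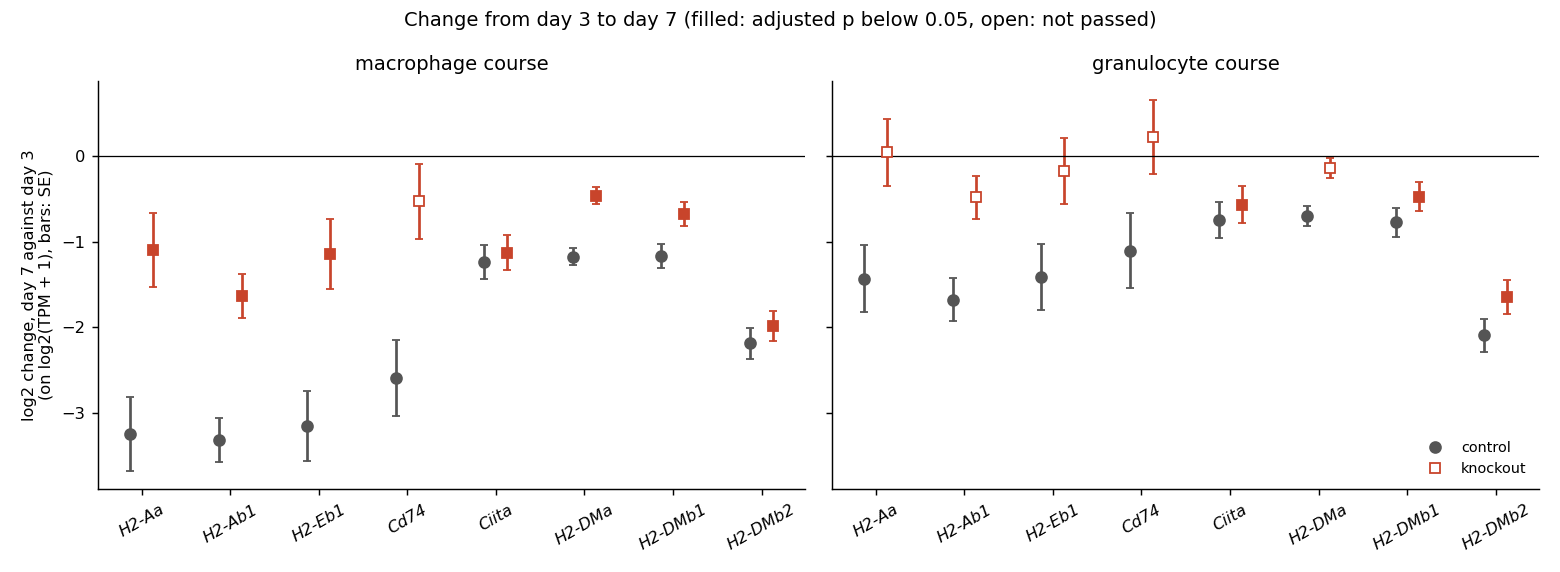
Log2 change from day 3 to day 7 of each member in the macrophage course (left) and the granulocyte course (right), controls as grey circles and knockouts as red squares, with standard errors and filled points for adjusted p below 0.05. In the macrophage course H2-Aa lies at -3.25 in controls and -1.10 in knockouts, and the 8 control points of each course are filled.

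In the granulocyte course all 8 members fell in controls (54.7% of genes changed, 19.7% higher and 35% lower) and 3 in knockouts, Ciita, H2-DMb1 and H2-DMb2 (55.8%, 27.1% higher and 28.7% lower). In controls H2-Aa fell by 1.43 ± 0.39 and H2-Ab1 fell by 1.67 ± 0.25 (limma adjusted p = 0.00436 and 1.39e-05). H2-DMb2 fell by 2.09 ± 0.20 in controls and 1.65 ± 0.20 in knockouts (limma adjusted p = 2.56e-08 and 7.04e-07). The Cd74 fall in controls, 1.10 ± 0.43 on the log2 scale (limma adjusted p = 0.0368), was lost without control replicate 2 or 3 of day 3 or replicate 1 or 2 of day 7 (limma adjusted p = 0.0904 to 0.112), and under median-of-ratios scaling (limma adjusted p = 0.0712). In knockouts Cd74 had a log2 value of 0.23 ± 0.43 (limma adjusted p = 0.676). The knockout falls of Ciita and H2-DMb1 were each lost without any of 4 libraries, replicates 2 and 3 of day 3 and replicates 1 and 2 of day 7 (limma adjusted p = 0.0528 to 0.139).

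This change differed between genotypes for 3 members, again less lowered in knockouts, against 33.8% of genes, 22.3% higher and 11.4% lower. The differences were 1.47 ± 0.56 for H2-Aa, 1.19 ± 0.36 for H2-Ab1 and 0.56 ± 0.17 for H2-DMa (limma adjusted p = 0.0462, 0.0149 and 0.014). H2-Eb1 at 1.24 ± 0.55 and Cd74 at 1.33 ± 0.61 did not pass (limma adjusted p = 0.0854 and 0.0993). Both passed with only these groups fitted (limma adjusted p = 0.0275 and 0.00826), and H2-Eb1 also without knockout replicate 1 of day 7 (limma adjusted p = 0.0411). The H2-Aa difference was lost when any library but control replicate 1 of day 3, control replicate 3 of day 7 or knockout replicate 1 of day 7 was left out (limma adjusted p = 0.0623 to 0.118). That of H2-Ab1 was lost without knockout replicate 3 of day 7 (limma adjusted p = 0.0522). Under median-of-ratios scaling H2-Aa and H2-DMa no longer passed (1.28 and 0.38, limma adjusted p = 0.052 and 0.0818). Here the change was more positive in knockouts for 5 of 12 macrophage markers and more negative for 2. It was more positive for 8 of 9 interferon gamma pathway genes. The courses share their day 3 libraries, so their genotype differences are not independent of each other.

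The courses were compared directly within each genotype. In controls at day 5, 6 members were lower in macrophage than in granulocyte cultures, where 3.44% of 11119 genes differed, 1.17% higher and 2.27% lower. H2-Ab1 held 37.1, 51.2 and 51.5 TPM in the macrophage cultures against 98.7, 107 and 100.05 TPM, a log2 difference of -1.13 ± 0.13 (limma adjusted p = 0.000884). Cd74 was 0.99 ± 0.15 lower on that scale (limma adjusted p = 0.00566), and neither gene's libraries overlapped. H2-DMa at -0.38 ± 0.11 did not pass (limma adjusted p = 0.0958). The calls of H2-Aa, H2-Eb1, Ciita and H2-DMb1 were each lost without granulocyte replicate 2 (limma adjusted p = 0.0609 to 0.176), which left 2 members. The call of H2-Aa was also lost without granulocyte replicate 3 or macrophage replicate 2 (limma adjusted p = 0.093 and 0.0509), that of H2-Eb1 without any library but granulocyte replicate 1 (limma adjusted p = 0.059 to 0.176), and that of H2-DMb1 also without granulocyte replicate 3 or macrophage replicate 2 or 3 (limma adjusted p = 0.091 to 0.109).

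In knockouts at day 5, 2 members were lower in the macrophage course, Ciita and H2-DMb1 (16.5% of genes, 3.66% higher and 12.9% lower). With the replicate number as a block, which the courses share, 5 members passed, and under median-of-ratios scaling 0 passed. With any 1 library of these groups left out, at most 1 passed; Ciita was then at limma adjusted p = 0.0677 to 0.137. At day 7, 7 members were lower in macrophage cultures of controls (46.7% of 11269 genes, 36.3% higher and 10.3% lower) and 6 in knockouts (53%, 37.5% higher and 15.4% lower). H2-Aa was lower by 1.82 ± 0.31 in controls and by 1.14 ± 0.31 in knockouts on the log2 scale (limma adjusted p = 0.00113 and 0.00989). Cd74 was lower by 1.49 ± 0.28 and 0.75 ± 0.28 (limma adjusted p = 0.00193 and 0.0418). In controls the H2-DMb1 call was lost without granulocyte replicate 3 or macrophage replicate 2 (limma adjusted p = 0.0632 and 0.058). In knockouts the Cd74 call was lost without granulocyte replicate 2 or 3 or macrophage replicate 1 or 2 (limma adjusted p = 0.0809 to 0.152). The H2-DMa call was lost without replicate 1 or 3 of the granulocyte or 1 or 2 of the macrophage cultures (limma adjusted p = 0.0688 to 0.0802), and that of H2-Eb1 without granulocyte replicate 3 or macrophage replicate 1 (limma adjusted p = 0.0701 and 0.055).

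Whether the knockout difference itself depended on the course was tested by an interaction. At day 5, 0 of 8 members passed with limma, against 0.189% of genes (0.045% higher, 0.144% lower), and 2 had an unadjusted p below 0.05: H2-Ab1 at 0.74 ± 0.18 and Cd74 at 0.82 ± 0.22 (limma adjusted p = 0.171 and 0.235). At day 7, 0 members passed with limma, against 3.26% of genes (1.65% higher, 1.61% lower), and 0 had an unadjusted p below 0.05. Cd74 had a log2 value of 0.73 ± 0.40 (limma adjusted p = 0.408). With the replicate number as a block, Cd74 passed at day 7 (limma adjusted p = 0.0242).

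Ratios of 2 members within a library, which no scaling of that library alters, were taken after the levels had been seen. The ratio of Cd74 to H2-Aa at day 0 was 1.36, 1.15 and 1.11 in controls and 1.27, 1.81 and 1.71 in knockouts, which overlapped. At day 3 it was 1.92, 1.81 and 1.78 in controls and 3.97, 3.53 and 3.83 in knockouts. From day 3 on, every knockout library was above every control library of its stage. The mean ratios of control and knockout were 3.19 ± 0.561 and 7.92 ± 1.25 (SD, n = 3) at day 5 and 2.96 ± 0.253 and 5.67 ± 0.0620 at day 7 of the macrophage course. In the granulocyte course they were 2.67 ± 0.275 and 5.87 ± 0.46 at day 5 and 2.32 ± 0.0989 and 4.29 ± 0.231 at day 7. In an exact permutation test (two-sided, 3 against 3), p was 0.1 at each of these 5 stages, the smallest value this design allows, and the Benjamini-Hochberg value over 18 ratio tests was 0.164.

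**Figure D4:**
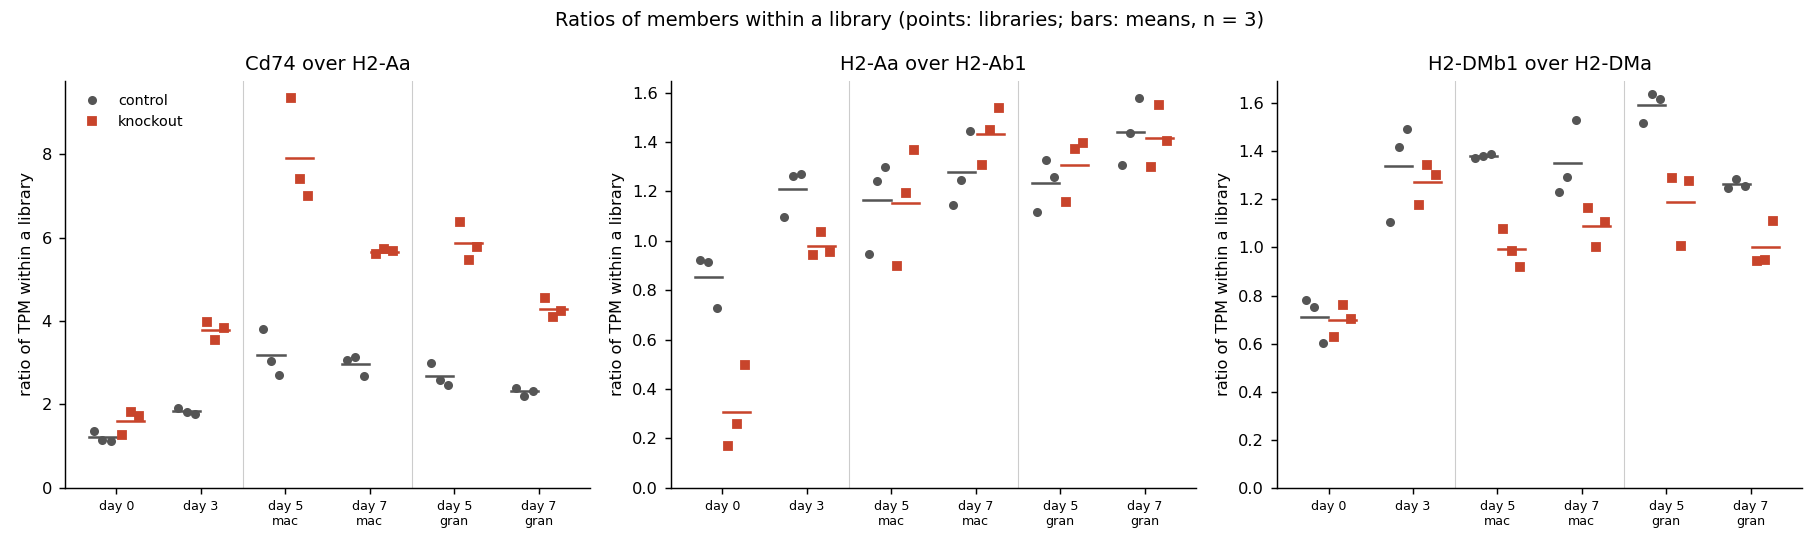
Ratio of TPM within a library for Cd74 over H2-Aa, H2-Aa over H2-Ab1 and H2-DMb1 over H2-DMa at the 6 stages, control as grey circles and knockout as red squares, with means of 3 libraries as bars. The Cd74 ratio of knockouts lies above all controls from day 3 on, for example 5.60 to 5.72 against 2.67 to 3.15 at day 7 of the macrophage course.

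The chains of one dimer also differed in ratio at day 0. H2-Aa over H2-Ab1 was 0.922, 0.912 and 0.729 in day 0 controls and 0.169, 0.259 and 0.498 in day 0 knockouts. At day 3 it was 1.21 ± 0.0988 in controls and 0.977 ± 0.0523 in knockouts (SD, n = 3). The genotypes lay apart at both days (exact permutation p = 0.1, Benjamini-Hochberg value 0.164) and overlapped at all 4 later stages. The H2-DM chains showed the reverse order of stages. H2-DMb1 over H2-DMa was 0.711 ± 0.0962 in controls and 0.697 ± 0.068 in knockouts at day 0, with overlap. At day 5 of the macrophage course it was 1.37, 1.382 and 1.39 in controls and 1.08, 0.984 and 0.918 in knockouts. Knockouts lay below controls at days 5 and 7 of both courses (exact permutation p = 0.1 at each, Benjamini-Hochberg value 0.164). The sequence that H2-DMb1 shares with H2-DMb2, and the H2-DMa exon bases that overlap Brd2, may affect this ratio.

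Over the 36 libraries, Pearson's r on log2(TPM + 1) was 0.99 for H2-Aa with H2-Eb1, 0.91 for H2-Aa with H2-Ab1 and 0.86 for H2-Aa with Cd74. For Cd74 with H2-DMa it was -0.19. After the group mean was taken from each library the last of these was 0.39 and that of H2-Aa with Cd74 0.96. These are descriptions over libraries that share their groups and their fixed TPM total. The members' mean standardised level was compared with 9922 genes that reached 5 TPM in 3 or more libraries, 7 members among them, and the members were then set aside. The most alike over the 36 libraries were Mcpt8, a basophil protease (r = 0.84), P2ry10, a receptor of lymphoid and myeloid cells (0.83), and Mcf2l (0.82), followed by Gnb5, Plekhf1, Cd55, Clu, Thy1, Wipi1 and Gstt1 (0.80 to 0.78). Mcpt8 stood at 193, 245 and 63.4 TPM in day 0 controls and 831, 1006 and 1051 TPM in day 3 controls. Its day 0 control replicate 3 was the lowest control, as for the chains. Mcpt8 was picked by likeness over these same libraries, so this is no separate observation. With group means removed the most alike was S100a4 (r = 0.90), a calcium-binding protein, then Clcn4-2 (0.82), Rab43, 5031439G07Rik, Amica1, Twf1, BC037034, Rgl2, Myl12a and E2f1 (0.77 to 0.74).

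Of the other genes of the pathway, 10 were in the tables and 8 tested, and H2-Ea was not analysed here. At day 0, 5 of 8 were lower in knockouts and 0 higher, against 10.2% of all genes lower. March8, a ubiquitin ligase of membrane proteins, fell by 1.06 ± 0.13, H2-Ob, a chain of the H2-DM inhibitor H2-DO, by 1.17 ± 0.17, and Lgmn, an endosomal protease, by 1.18 ± 0.24 (limma adjusted p = 4.66e-06, 3.54e-05 and 0.00148). At day 3, 6 of 8 were lower (26.7% of all genes), led by the proteases Ctsl and Lgmn, which fell by 2.70 ± 0.21 and 3.16 ± 0.24 (limma adjusted p = 6.21e-09 and 6.26e-09). Ctss, the main protease of the invariant chain in many presenting cells, stood at 849, 608 and 655 TPM in day 3 controls and 278, 193 and 203 TPM in day 3 knockouts. At day 5, 5 of 8 were lower in each course (37.9% of all genes in the macrophage and 22.8% in the granulocyte course), among them March1, a ubiquitin ligase of class II, which fell by 1.383 ± 0.19 and 1.395 ± 0.17 (limma adjusted p = 1.62e-05 and 2.43e-06). At day 7 of the macrophage course 2 were higher (27.4% of all genes), Ctsl by 1.21 ± 0.21 and the thiol reductase Ifi30 by 0.48 ± 0.15 (limma adjusted p = 0.000164 and 0.0136). At day 7 of the granulocyte course 1 was higher and 2 lower (32.1% and 12% of all genes).

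Factors that bind class II promoters were counted next. At day 0, 0 of 10 promoter factors passed with limma (23.3% of all genes passed) and 3 had an unadjusted p below 0.05. Rfx5, a subunit of RFX, was at 8.12, 7.97 and 7.38 TPM in controls and 8.72, 8.03 and 8.01 TPM in knockouts. At day 3, 2 of 10 were higher, where 26.5% of all genes were higher. At day 5 of the macrophage course 4 were lower, near the 37.9% of all genes lower at that stage. Among these 4 was Nfyc, a subunit of NF-Y, which fell by 0.45 ± 0.08 (limma adjusted p = 0.000254). Of 9 tested genes of the interferon gamma pathway, which can induce Ciita, 4 were higher in day 0 knockouts (13.1% of all genes), with Socs1, a feedback inhibitor of cytokine signalling, up by 0.70 ± 0.14 (limma adjusted p = 0.00099). At day 3, 4 of 9 were lower (26.7%). At day 7, 7 of 9 were higher in each course (27.4% of all genes in the macrophage and 32.1% in the granulocyte course), with Socs1 up by 1.07 ± 0.14 and 2.58 ± 0.25 (limma adjusted p = 8.09e-06 and 1.82e-07). Ifng itself was listed at 0 in all knockout libraries of day 0 and in all libraries from day 3 on. Of 9 MHC class I genes, 1 was higher and 1 lower at day 0 (13.1% and 10.2% of all genes), and 7 were lower at day 3 (26.7%).

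Markers of cell types that carry class II also moved. Of 18 dendritic cell markers 15 were tested. At day 0, 3 were lower in knockouts (10.2% of all genes), Batf3 by 1.29 ± 0.22, Zbtb46 by 0.75 ± 0.15 and Itgax by 1.02 ± 0.26 on the log2 scale (limma adjusted p = 0.000211, 0.00113 and 0.00693). Clec9a was at 1.31, 2.19 and 0.63 TPM in day 0 controls and 0.17, 0.27 and 0.44 TPM in day 0 knockouts, so replicate 3 was again the lowest control and the highest knockout. The summed level of the list was 142 to 200.2 TPM in controls and 159 to 195 TPM in knockouts. Under 1 TPM in all libraries of the group were 6 of its markers in controls and 11 in knockouts, Xcr1 among them. At day 3, 7 of 15 dendritic markers passed in either direction (53.2% of all genes). At day 5, 10 passed in the macrophage and 7 in the granulocyte course (43% and 32% of all genes). Their sums overlapped between genotypes at day 5, with means of 711 TPM in knockouts and 448 TPM in controls of the macrophage course. The granulocyte means were 625 and 350 TPM. At day 7, 9 of 15 dendritic markers were higher and 2 lower in each course (27.4% and 32.1% of all genes higher, 12.5% and 12% lower). The higher ones included the chemokine Ccl22, up by 3.05 ± 0.25 and 4.61 ± 0.52 (limma adjusted p = 2.43e-08 and 1.04e-06). Their summed level at day 7 was 189.5 to 281 TPM in controls and 213 to 277 TPM in knockouts of the macrophage course, and 113 to 136 and 199.5 to 362 TPM in the granulocyte course. The part of such cells in the class II differences was not tested.

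Defining B cell markers were near 0. At day 0 Cd79a, Ms4a1, Pax5 and Ebf1 were each below 1 TPM in every library, and Cd79b, at 37.5, 31.4 and 28.9 TPM in controls and 29.6, 27.4 and 29.2 TPM in knockouts, made up most of the list's sum of 34.0 to 44.9 and 31.7 to 34.4 TPM. Of 6 tested B cell markers 1 was lower (10.2% of all genes lower), Cd22 by 0.72 ± 0.12 (limma adjusted p = 0.000238). Among T and NK cell markers only Nkg7 was tested, at 484, 307 and 297 TPM in day 0 controls and 118, 124 and 119.9 TPM in day 0 knockouts. Of 12 macrophage markers, 1 was higher and 2 lower at day 0 (13.1% and 10.2% of all genes). Their sum there was 181 to 254 TPM in controls and 111 to 123 TPM in knockouts. At day 3, at day 5 of both courses and at day 7 of the granulocyte course 10 were lower in knockouts (26.7%, 37.9%, 22.8% and 12% of all genes). In either direction 11 passed at day 5 of the macrophage course and at day 7 of the granulocyte course (43% and 44.1% of all genes). At day 7 of the macrophage course, where Cd74 was higher, 3 macrophage markers were higher and 2 lower (27.4% and 12.5% of all genes). Their sum there was 1756 to 2570 TPM in controls and 1874 to 2152 TPM in knockouts.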

How the data were processed

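Total RNA libraries were made with a stranded kit, per the labels' protocols. The authors deposited TPM per gene in 2 tables, whose 12 columns of days 0 and 3 were equal. RSEM and DESeq2 1.38.3 are named, with build mm10, per the submitters' processing notes; the RSEM version was not given in those notes. Depth behind a TPM value is unknown. Members and gene lists were chosen with earlier results of these data known.

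TPM was analysed as log2(TPM + 1), a pseudocount of 1. A gene entered a fit where 3 or more of its libraries reached 1 TPM (11953 and 11905 for the courses, 11119 at day 5, 11269 at day 7). Groups were fitted with limma 3.58.1 (R 4.3.3, trend), with 21 comparisons, Benjamini-Hochberg adjustment over all genes and a threshold of 0.05. Scripts were tested on simulated data. Exact permutation tests used SciPy 1.17.1. Named were all members, Taf1, up to 3 passing genes per list with the smallest p, and the 10 genes most like the members. Other genes, such as Clec9a, Rfx5, Ctss, Cd79b, Kit and Cd34, were named after their values were seen.

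The alternatives were pseudocounts of 0.1 and 5, no filter, a 5 TPM floor, scaling by median of ratios (factors 0.8087 to 1.225), removal of 212 genes of short structural RNAs and histones, the groups of a contrast alone, a replicate block, the granulocyte table for days 0 and 3, and each library left out. Leaving out replicate 3 of both genotypes at day 0, the ratios and the wider X box were added after the data were seen. Replicate numbers paired the genotypes by the correlation of deviations from group means at day 5 of the macrophage course (0.300, 0.182 and 0.267) and paired the courses at days 5 and 7 (at least 0.231), but not the genotypes at other stages.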

Additional observations from a re-analysis of the deposited data

Results flagged for a closer look

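For 6 of the 8 members the change over time differed between control and knockout by a test of that difference (limma, adjusted p below 0.05), 10 differences in all. From day 0 to day 3, Cd74 rose by 2.26 more and Ciita by 0.944 more in knockouts on the log2 scale (limma adjusted p = 0.00912 and 0.016). From day 3 to day 7 in the macrophage course, knockouts were less lowered by 2.15 for H2-Aa, 1.68 for H2-Ab1, 2.00 for H2-Eb1, 2.06 for Cd74 and 0.714 for H2-DMa (limma adjusted p = 0.000627 to 0.0143). In the granulocyte course they were less lowered by 1.47 for H2-Aa, 1.19 for H2-Ab1 and 0.564 for H2-DMa (limma adjusted p = 0.014 to 0.0462). In the macrophage contrast 10 of 12 macrophage markers and 9 of 9 interferon gamma pathway genes also had a more positive change in knockouts (21.8% of all genes). Their part was not tested. The groups of 3 libraries are too small for a check of single outlying libraries.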

How the results depend on the processing

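Of 21 counts of members past the threshold, the 175 values under alternatives that kept all libraries or dropped replicate 3 of both genotypes at day 0 were within 1.5 times the main count in 158. With only the groups of the contrast fitted, 5 members were called in knockouts at day 5 granulocyte, 1 at day 7 granulocyte, 5 in the granulocyte difference of day 3 to 7 changes and 3 between the courses in day 5 controls. At day 7 granulocyte, no filter, a pseudocount of 5 and the replicate block each gave 1. Without short structural RNA and histone genes 5 fell in knockouts from day 3 to 7 granulocyte. The genotype difference from day 0 to 3 gave 1 with a 5 TPM filter or a pseudocount of 5 and 5 without replicate 3 of both day 0 genotypes. Median-of-ratios scaling gave 1 for the granulocyte difference of day 3 to 7 and 0 for the courses in day 5 knockouts, where the 5 TPM filter and the pseudocount of 0.1 gave 1 and the replicate block 5. The block gave 1 for the course interaction at day 7 and changed the calls of H2-DMa at day 7 granulocyte, H2-Aa in the genotype difference from day 0 to 3 and Cd74 in the day 7 interaction. Of the 121 results for single genes given with values it changed no other call. The cause of these shifts was not tested.

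With 1 library left out, counts ran from 4 to 6 at day 3, 0 to 2 at day 7 macrophage and 1 to 2 at day 7 granulocyte. For knockouts from day 3 to 7 they ran from 5 to 7 macrophage and 1 to 4 granulocyte. The genotype difference from day 0 to 3 gave 1 to 4, and that from day 3 to 7 granulocyte 1 to 4. The courses gave 2 to 6 in day 5 controls, 0 to 1 in day 5 knockouts and 3 to 6 in day 7 knockouts. Of those 121 results, none changed sign. Median-of-ratios scaling moved the median of all genes from -0.23 to -0.02 at day 5 macrophage, 0.12 to -0.01 at day 7 macrophage and 0.17 to -0.02 at day 7 granulocyte, and the share of called genes that were higher from 11.9% to 48.7%, 68.7% to 46.3% and 72.9% to 45.3%. The number of reads behind low members such as Ciita is unknown, so their counting error could not be given.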
